A study of Rattus norvegicus with 6 samples.

Results

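Chemokines are small secreted proteins that draw leukocytes along a gradient, and their receptors are membrane proteins that signal through G proteins. The genes described here are the 50 chemokines and chemokine receptors, 32 ligands and 18 receptors, among the 14506 genes that the array annotation named on a row of their own. They were chosen by a naming rule, as every gene called Ccl, Cxcl, Ccr, Cxcr, Xcl or Xcr with a number, or starting with Cx3c or Ackr, except the stromal factor Cxcl12, whose own value is given with the related genes. Each of the 50 has a single row on the array.

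Families are named for the spacing of the first cysteines of the ligand, and atypical receptors (Ackr) bind ligands without driving migration through G proteins. In bone, chemokines are known for calling monocytes, from which macrophages and osteoclasts form, and for holding blood-forming cells in the marrow. Ccl9 and its receptor Ccr1 are known as a ligand and receptor pair of mouse osteoclasts, the multinucleated cells that resorb bone.

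The cells came from the long bones of newborn Sprague Dawley rats, 2 to 5 days old, with no genetic change or drug named in the labels. After extraction they were left to adhere in plates coated with mouse prothrombin (PT), the precursor of the clotting protease thrombin, or with bovine milk osteopontin (OPN), a bone matrix protein bound by integrins. The cells that attached gave RNA for 3 arrays per coating, PT replicates 1, 2 and 4 and OPN replicates 2, 3 and 4. Both groups are therefore mixtures sorted only by attachment, not pure cell types, and the labels do not say whether arrays came from separate animals. The p-values then rest on the spread between these arrays alone, and that spread may be technical.

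Values are PLIER signals, a linear summary of the probes of 1 row without a stated scale. Array medians lay between 207.8 and 231.4 units, and the lowest correlation between arrays of the same coating was 0.988, against a highest of 0.979 between coatings. Differences are means of log2(signal + 16) on OPN minus PT, which understates changes of dim genes. Every fold is taken on that scale too, so it need not equal the ratio of the mean signals printed beside it. A gene is called, and said to have risen or fallen, when limma's adjusted p over all 29215 rows is below 0.05. Counts at limma's unadjusted p below 0.05 are given for some groups. The share of all genes passing that cut was not counted, so these counts have no background beside them. Detection over background was not used, and the mean signals of the 50 genes ranged from percentile 9.19 to 95.8 of all rows.

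Among the 50 genes, 4 rose and 4 fell on OPN. The neutrophil attractant Cxcl1, the monocyte and osteoclast chemokine Ccl9, the receptor Ccr1 and the interferon-inducible Cxcl10 rose, by 1.52-fold to 2.51-fold. The macrophage inflammatory proteins Ccl3 and Ccl4, the monocyte attractant Ccl7 and the eosinophil receptor Ccr3 fell, by 1.25-fold to 1.53-fold. The called genes were 16% of the 50, against 5.82% of all rows and 8.73% of the 14506 named genes. Their directions were even (8% of members each way), while 7.62% of named genes rose and 1.12% fell. The background's split depends on the scaling: over all rows 86.8% of calls were higher, but 68.4% with equal array medians and 64.6% with quantile normalisation. Under each of those other scalings 5 members were called lower. Ligands gave 6 of the calls, 3 in each direction of 32, and receptors gave 2 of 18, with 1 in each direction. The median difference was -0.01 over the ligands and 0.04 over the receptors, beside 0.04 over all named genes.

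Fewer genes were called lower when single arrays were left out. The 4 genes that rose stayed called without any 1 array. Lower calls numbered 1 without PT replicate 2, PT replicate 4, OPN replicate 3 or OPN replicate 4 and 2 without OPN replicate 2. Without PT replicate 1 they numbered 3, of which Ccl6 was newly called while Ccl4 and Ccl7 were lost. In all, 5 to 7 members were called in these fits, and Ccl3 was called lower in each. Over all rows lower calls dropped in these fits too, from 225 to between 95 and 181.

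**Figure D1:**
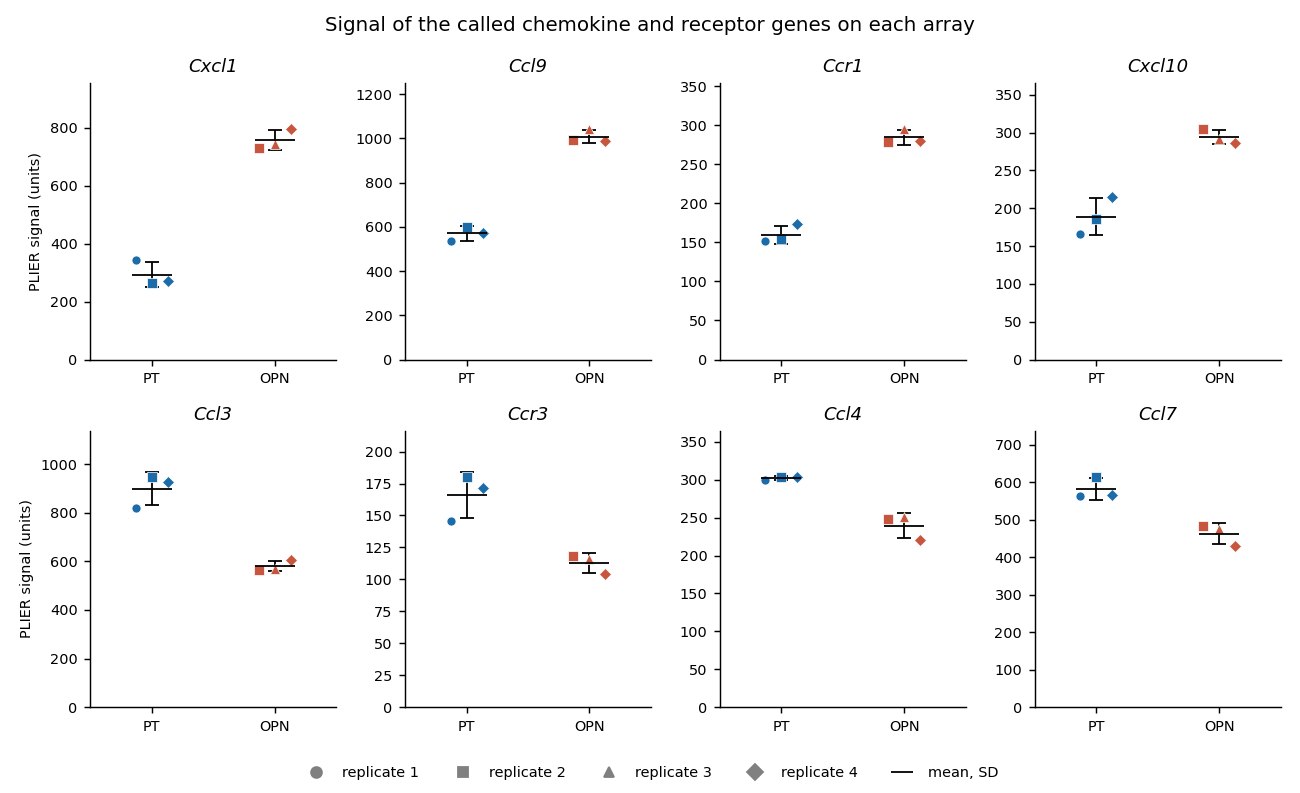
Signal in PLIER units (vertical axes, from 0) of the 8 called genes on the 3 PT arrays (blue) and 3 OPN arrays (red), with the replicate number as the symbol, the mean as a bar and the SD as whiskers. The upper row holds the genes that rose on OPN and the lower row those that fell, and in each panel the arrays of the coatings do not overlap.

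Cxcl1, which binds the receptor Cxcr2 and calls neutrophils, differed most. Its signals were 344, 265 and 270.3 units on PT replicates 1, 2 and 4 and 729, 742 and 795 units on OPN replicates 2, 3 and 4. The lowest OPN array stood far above the highest PT array, and PT replicate 1 was the brightest of its group. The means were 293 ± 44.2 on PT and 755.5 ± 34.8 on OPN (SD, n = 3), and on the log2(signal + 16) scale the difference was 2.51-fold (log2 1.33, SE 0.10, adjusted p = 0.000109).

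The other neutrophil attractants of the CXC family were not called. Cxcl2, a close relative of Cxcl1 that acts on the same receptor, gave 428, 403 and 362 units on PT and 349, 318 and 323 on OPN. Its OPN arrays all lay below its PT arrays, and the difference of -0.26 was not called (SE 0.08, adjusted p = 0.137), though it was with equal array medians (adjusted p = 0.0491). Cxcl3 (0.06, 95% interval -0.17 to 0.29) and Cxcl6 (0.09, -0.08 to 0.26) had overlapping arrays. Cxcr2, the receptor of this group, had a difference of 0.14 (-0.15 to 0.43) and was not called. Probe sequences were not used here, so whether probes of Cxcl1, Cxcl2 and Cxcl3 pick up each other's transcripts was not checked.

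The NF-kB family of transcription factors is known to drive several inflammatory chemokines, and a loose form of its binding pattern (GGG, any 3 bases, then TTCC) was searched on both strands of the RefSeq promoters of the GRCr8 assembly, from 250 bases before to 50 bases after each gene's start. Promoters were at hand for 39 of the 50 genes, and 10 of these held at least 1 match (25.6%), against 5.37% of 33469 promoters. Matches lay in 9 of 26 ligand promoters and 1 of 13 receptor promoters. The upstream parts of the neighbours Cxcl1 and Cxcl2 are shown because their genes lie side by side and differ in their values. Those of Cxcl10 and Ccl9 are shown because these also rose and hold a match, while Ccr1, which rose without a match, is not shown. Matches are in capitals.
Cxcl1 (chr14:17479322-17479571, minus strand): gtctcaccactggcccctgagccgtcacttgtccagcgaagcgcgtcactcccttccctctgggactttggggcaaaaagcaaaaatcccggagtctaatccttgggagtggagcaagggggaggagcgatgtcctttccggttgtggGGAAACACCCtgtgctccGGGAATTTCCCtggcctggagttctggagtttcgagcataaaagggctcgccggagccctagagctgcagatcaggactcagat
Cxcl2 (chr14:17467256-17467505, minus strand): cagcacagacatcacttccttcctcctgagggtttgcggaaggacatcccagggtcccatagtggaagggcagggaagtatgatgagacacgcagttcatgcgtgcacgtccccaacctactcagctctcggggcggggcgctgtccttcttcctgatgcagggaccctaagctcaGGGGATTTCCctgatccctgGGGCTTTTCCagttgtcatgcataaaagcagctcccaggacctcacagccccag
Cxcl10 (chr14:15988816-15989065, plus strand): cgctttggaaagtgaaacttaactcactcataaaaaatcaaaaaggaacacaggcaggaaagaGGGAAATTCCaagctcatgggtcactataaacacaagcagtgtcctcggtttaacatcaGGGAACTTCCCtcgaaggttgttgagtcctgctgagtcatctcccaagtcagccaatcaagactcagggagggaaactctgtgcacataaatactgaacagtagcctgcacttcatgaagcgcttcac
Ccl9 (chr10:68868878-68869127, minus strand): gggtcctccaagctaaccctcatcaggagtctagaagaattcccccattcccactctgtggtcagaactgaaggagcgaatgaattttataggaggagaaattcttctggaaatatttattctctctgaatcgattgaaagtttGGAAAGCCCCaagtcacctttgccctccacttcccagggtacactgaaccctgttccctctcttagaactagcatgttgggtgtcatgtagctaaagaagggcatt
In Cxcl1 a match begins 102 bases before the start, and a pair that overlap by all but 1 base on opposite strands begins at 84 and 83 bases. Cxcl2, which was not called, also holds matches, at 74 and 54 bases before its start. Cxcl10 has one at 187 bases and an overlapping pair at 128 and 127 bases, and Ccl9 has one at 106 bases upstream and another within its transcript that is not shown. Among called genes with a promoter, Ccl7 and Ccr3, which fell, held a match too and Ccr1 held none. For Ccl3 and Ccl4, which also fell, no promoter was at hand. Of the genes with a promoter at hand, 3 of 4 that rose, 2 of 2 that fell and 5 of 33 without a call held the pattern, counts given as a description with no test. A match describes letters of the reference strain, and binding was not measured.

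Cxcl10, an interferon-inducible attractant of T cells, rose 1.52-fold. It gave 166, 185 and 215 units on PT and 305, 291 and 286 on OPN, so that the lowest OPN array stood above the highest PT array. The means were 189 ± 24.4 and 294 ± 9.75 units (SD, n = 3), with a log2 difference of 0.60 (SE 0.09, adjusted p = 0.00570). Cxcl9 (0.03, 95% interval -0.16 to 0.22) and Cxcl11 (-0.11, -0.39 to 0.16), which share the interferon response and the receptor Cxcr3 with it, were not called. Each lies next to Cxcl10 in the genome. The value of Cxcl9 turned below 0 under both alternative scalings, so it has no settled direction.

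Among the inflammatory CC ligands, which call monocytes and macrophages, 1 of 8 rose and 3 fell, with a median of -0.28. Of all named genes 7.62% rose and 1.12% fell. Ccl9 rose. Its signals were 537, 601 and 573 units on PT and 991, 1043 and 990.3 on OPN, a tight pair of groups with a wide gap. The means were 570.2 ± 32.2 and 1008 ± 30.2 units (SD, n = 3), and on the log2(signal + 16) scale the difference was 1.75-fold (log2 0.81, SE 0.07, adjusted p = 0.000236).

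Ccl3 moved the other way. This ligand of Ccr1 is made by macrophages, and its signals were 821, 949 and 927 units on PT against 566, 568 and 604 on OPN. The lowest PT array was well above the highest OPN array. The means were 899 ± 68.5 and 579.5 ± 21.2 units (SD, n = 3), and on the log2(signal + 16) scale OPN was 1.53-fold lower (log2 -0.62, SE 0.08, adjusted p = 0.00194).

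Ccl4, a related ligand, gave 299.8, 304 and 304 units on PT and 248, 250.3 and 220.0 on OPN. It fell by less, with a log2 difference of -0.32 (SE 0.07, adjusted p = 0.0396). Ccl7, a monocyte attractant that binds Ccr2, gave 565, 615 and 568 units on PT and 484.5, 474 and 431 on OPN (log2 -0.32, SE 0.08, adjusted p = 0.0460). Both had groups that did not overlap, yet each call was lost whichever 1 array was left out, with adjusted p between 0.0851 and 0.119 for Ccl4 and between 0.0782 and 0.144 for Ccl7, and that of Ccl7 was also lost with an offset of 1 (adjusted p = 0.0605).

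Ccl6 and Ccl2 lay on the same side without a call. Ccl6, a relative of Ccl9 that binds Ccr1, gave 461, 558 and 601 units on PT and 420.2, 422 and 415 on OPN. Its OPN arrays were nearly equal while its PT arrays spread widely, and the difference of -0.35 missed the threshold (SE 0.10, adjusted p = 0.0934). It passed with quantile normalisation (adjusted p = 0.0348), with an offset of 64, with the filter on dim rows, with 1 row per named gene, with a trended prior and without PT replicate 1. Ccl2, the main monocyte attractant acting on Ccr2, was bright, at 1366, 1632 and 1616 units on PT and 1302, 1283 and 1326 on OPN. Its groups did not overlap, but PT replicate 1 came close to the OPN arrays, and the difference was -0.23 (SE 0.08, adjusted p = 0.192). Ccl5 (0.13, 95% interval -0.06 to 0.32), made among others by activated T cells, and Ccl12 (-0.13, -0.38 to 0.11), a Ccr2 ligand, had overlapping arrays.

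No gene of the 11 other CC ligands was called in limma's test, beside 8.73% of all named genes. There were 0 at an unadjusted p below 0.05 as well, and their differences spanned -0.12 to 0.19. This group holds attractants of eosinophils (Ccl11, Ccl24, Ccl26), of lymphocytes homing to lymph nodes (Ccl19, Ccl21), of T cells and dendritic cells (Ccl17, Ccl20, Ccl22, Ccl25) and of cells homing to skin and mucosa (Ccl27, Ccl28). Ccl20, the ligand of Ccr6, had the highest difference among them, at 209, 157 and 164 units on PT and 215, 205 and 188 on OPN, with overlapping groups (0.19, SE 0.11, adjusted p = 0.436). The remaining CXC ligands, Cxcl13, Cxcl14, Cxcl16 and Cxcl17, spanned -0.13 to 0.11 without a call. Cxcl17, at 234, 274 and 259 units on PT and 219, 237.5 and 240.3 on OPN, had the largest of these, -0.13 (SE 0.08, adjusted p = 0.491). The ligands Xcl1 and Cx3cl1 lay at -0.03 and 0.06.

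**Figure D2:**
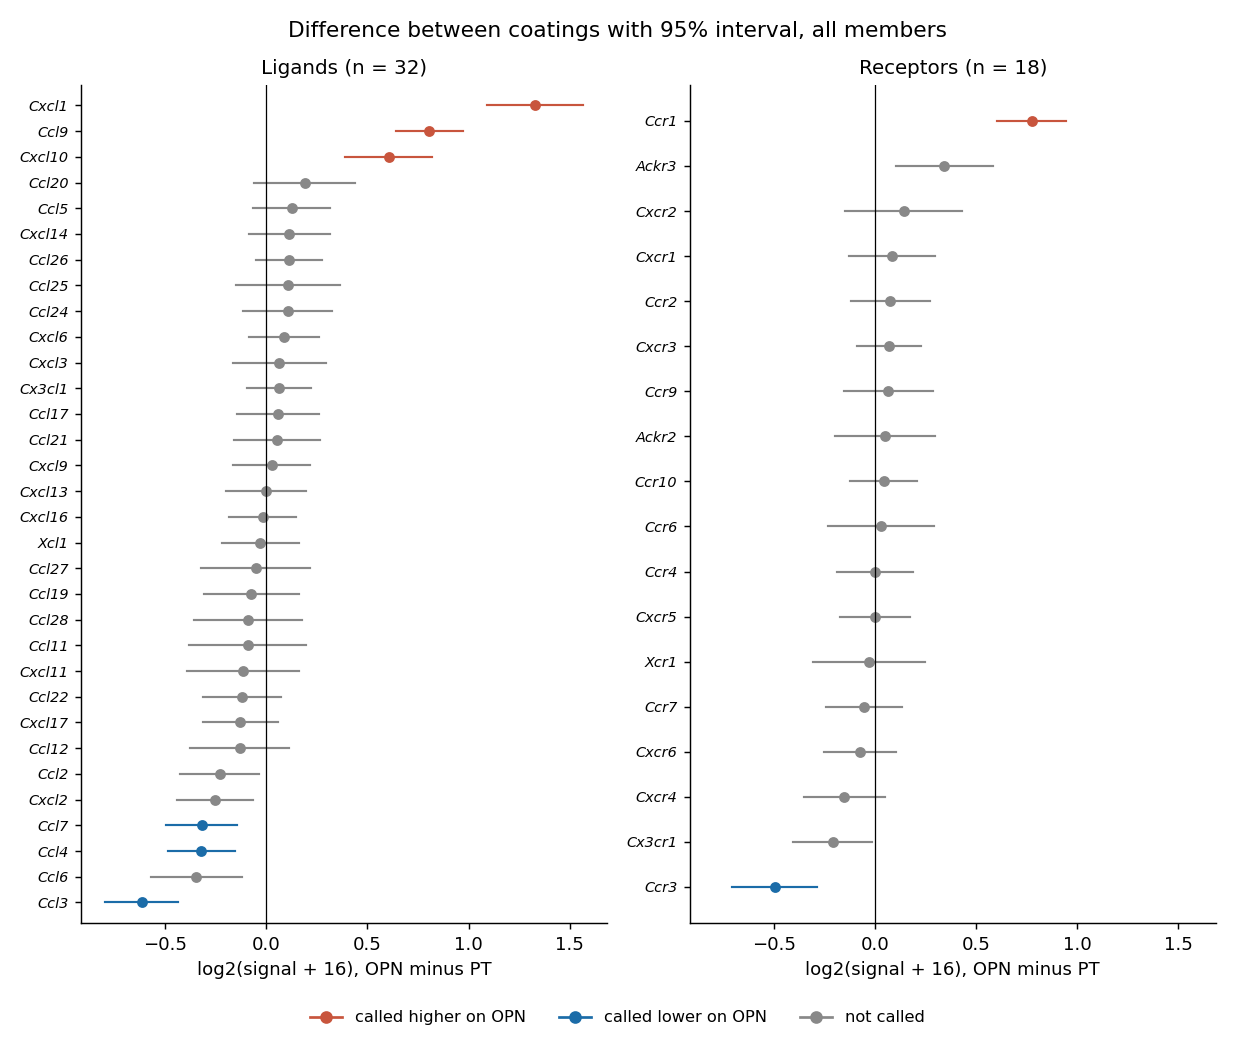
Difference in log2(signal + 16), OPN minus PT (horizontal axes), of the 32 ligands and 18 receptors, each point with its 95% interval from limma and coloured by its call. Most genes lie near 0, from -0.35 to 0.34 where not called, and the called genes reach from -0.62 (Ccl3) to 1.33 (Cxcl1).

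Among the receptors, Ccr1 rose and Ccr3 fell, although the genes are neighbours. Ccr1, which binds Ccl3, Ccl5, Ccl7 and Ccl9 and is found on monocytes and osteoclast precursors, gave 152, 154 and 173 units on PT and 279, 295 and 279.8 on OPN. The OPN arrays were alike and far above PT. The means were 159.9 ± 11.6 and 284.5 ± 9.26 units (SD, n = 3), and on the log2(signal + 16) scale the difference was 1.71-fold (log2 0.77, SE 0.07, adjusted p = 0.000374).

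Ccr3 is the eotaxin receptor of eosinophils. It gave 146, 180.4 and 172 units on PT and 118, 116 and 104 on OPN. It lay at percentile 26.7 of all rows by mean signal, and its groups did not overlap. The log2 difference was -0.50 (SE 0.09, adjusted p = 0.0147). The call was lost without PT replicate 2, PT replicate 4, OPN replicate 3 or OPN replicate 4 (adjusted p between 0.0524 and 0.0617). Its ligands Ccl11 (-0.09), Ccl24 (0.10) and Ccl26 (0.11) were not called. In the list of mast cell and eosinophil markers 0 of 10 genes were called, beside 8.73% of all named genes, and 1 had an unadjusted p below 0.05. Their summed signals were 6444 to 8511 units on PT and 7143 to 7542 on OPN.

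Of the other 16 receptors 0 were called by limma, beside 8.73% of all named genes. With so few genes, 0 calls lie near that share. Ackr3 and Cx3cr1, 2 of these 16, had an unadjusted p below 0.05. Ackr3, an atypical receptor that removes Cxcl12 and Cxcl11, gave 164, 138 and 188 units on PT and 219.7, 212 and 199 on OPN. Its OPN arrays all lay above PT, with a difference of 0.34 that missed the threshold (SE 0.10, adjusted p = 0.118). It passed without PT replicate 4 (adjusted p = 0.0482) and with 1 row per named gene (adjusted p = 0.0377). Cx3cr1, the fractalkine receptor of monocytes and resident macrophages, gave 287, 240.0 and 275.5 units on PT and 232.5, 214 and 239 on OPN. Its groups met without overlapping, and the difference was -0.21 (SE 0.09, adjusted p = 0.246).

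Cxcr4, which holds blood-forming cells in the marrow through Cxcl12, gave 1731, 1793 and 2042 units on PT and 1608, 1785 and 1606 on OPN. These overlap (-0.15, SE 0.09, adjusted p = 0.433). Ccr2, the Ccl2 receptor that marks inflammatory monocytes, lay at 0.08 (95% interval -0.12 to 0.27), as did Cxcr1, a neutrophil receptor. Ackr2, an atypical receptor that removes inflammatory CC ligands, lay at 0.05. The receptors typical of lymphocytes and dendritic cells, Ccr4, Ccr6, Ccr7, Ccr9, Ccr10, Cxcr3, Cxcr5, Cxcr6 and Xcr1, spanned -0.07 to 0.07. Markers gave 0 calls among 12 T and NK cell genes (1 at an unadjusted p below 0.05) and 0 among 6 B cell genes (2 at an unadjusted p below 0.05). Of all named genes 8.73% were called, so 0 in lists this short is near the background. Ccr8, Cxcl5, Ackr1 and Ackr4 were not analysed here.

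**Figure D3:**
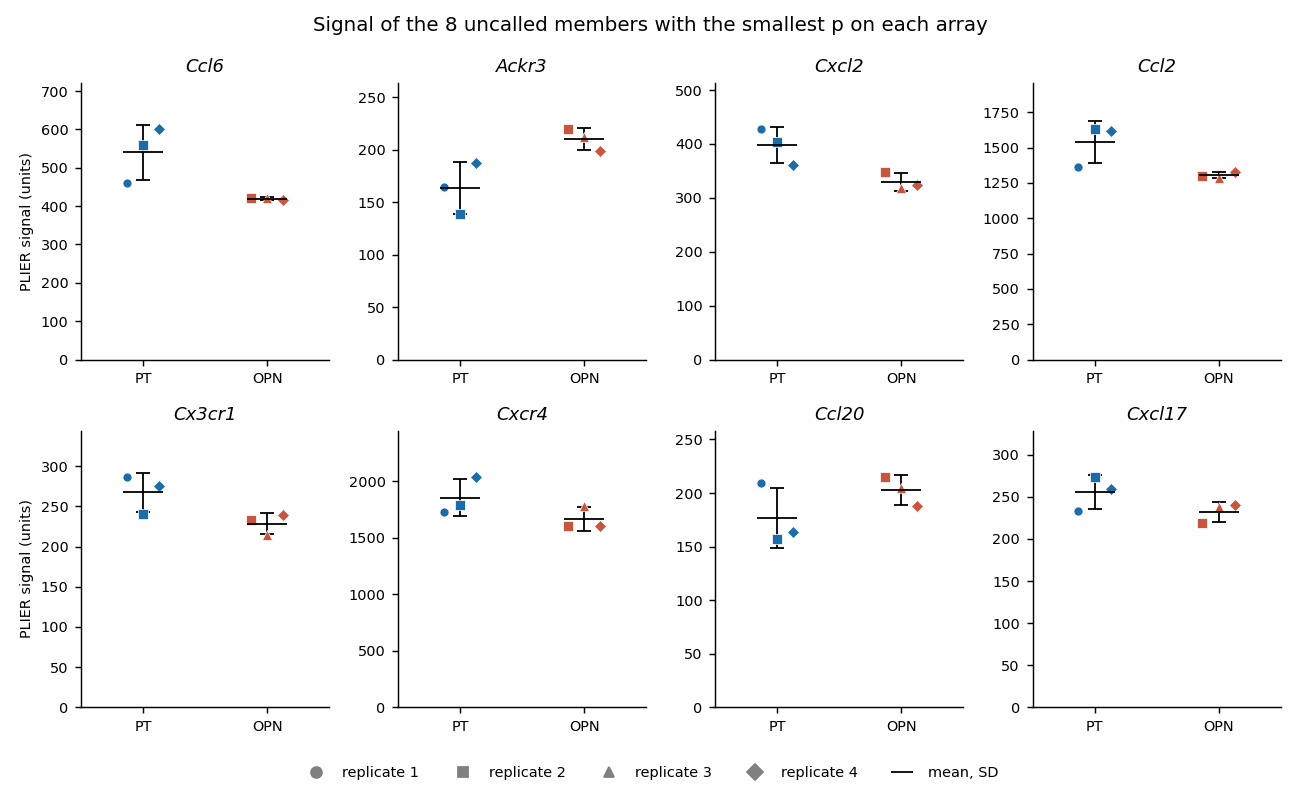
Signal in PLIER units (vertical axes, from 0) of the 8 uncalled genes with the smallest p on the 3 PT arrays (blue) and 3 OPN arrays (red), with the replicate number as the symbol, the mean as a bar and the SD as whiskers. Arrays of the coatings do not overlap for Ccl6, Ackr3, Cxcl2, Ccl2 and Cx3cr1 and overlap for Cxcr4, Ccl20 and Cxcl17.

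In all, the OPN arrays lay wholly above the PT arrays for 5 of the 50 genes (10%, against 21.6% of named genes) and wholly below for 8 (16%, against 8.77%). These shares were taken on the deposited signals only and may depend on the scaling. The median difference over all rows was 0.03 there, -0.04 with equal array medians and -0.03 with quantile normalisation. The standard errors of the 50 differences ran from 0.07 to 0.13. For 40 of the 42 uncalled genes the 95% interval lay between -0.5 and 0.5, and the exceptions were Ccl6 (down to -0.57) and Ackr3 (up to 0.58). These intervals bound the differences without showing that the genes were equal between coatings.

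Set beside their receptors, the ligands had mixed calls. Ccr1 rose, and of its ligands Ccl9 rose, Ccl3 and Ccl7 fell, and Ccl5 and Ccl6 were not called. For Ccr2, which was not called, Ccl7 fell while Ccl2 and Ccl12 were not called. Cxcr2 and Cxcr3 were not called either, and each has 1 ligand that rose, Cxcl1 and Cxcl10. For Ccr4 with Ccl17 and Ccl22, Ccr6 with Ccl20, Ccr7 with Ccl19 and Ccl21, Ccr9 with Ccl25, Ccr10 with Ccl27 and Ccl28, Cxcr5 with Cxcl13, Cxcr6 with Cxcl16, Xcr1 with Xcl1 and Cx3cr1 with Cx3cl1, neither side was called.

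Many chemokine genes arose by duplication and lie side by side. In the gene order of the GRCr8 assembly, 32 of the 50 genes fell into 9 runs, in which neighbours are separated by at most 2 other coding genes. In the run of Ccl5, Ccl9, Ccl6, Ccl3 and Ccl4, Ccl9 rose while Ccl3 and Ccl4 fell. In the run of Cxcl2, Cxcl1, Cxcl3 and Cxcl6 only Cxcl1 was called, in that of Cxcl11, Cxcl10 and Cxcl9 only Cxcl10, and in that of Ccl2, Ccl7, Ccl11 and Ccl12 only Ccl7. The receptor run held Ccr1 and Ccr3 next to each other with opposite calls, beside Ccr9, Cxcr6, Xcr1 and Ccr2 without one. The other 4 runs held no called gene.

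For 7 pairs of genes of the same run, not all directly adjacent, the log2 difference between both genes was also taken within each array. The pairs were picked after their values were seen, each holds a called gene, and this is a description with no test. Each shift is the difference between the values of both genes, so it adds no evidence. Cxcl1 minus Cxcl2 was -0.43 ± 0.14 on PT and 1.16 ± 0.12 on OPN (SD, n = 3), a shift of 1.58. Signals of different rows have no common scale, so only the shift is read and not which gene is more abundant. The contrast shifted by 1.42 for Ccl9 minus Ccl3, by 1.27 for Ccr1 minus Ccr3 and for Cxcl1 minus Cxcl3 by 1.26. It shifted by 1.15 for Ccl9 minus Ccl6, by 0.72 for Cxcl10 minus Cxcl11 and by 0.58 for Cxcl10 minus Cxcl9.

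**Figure D4:**
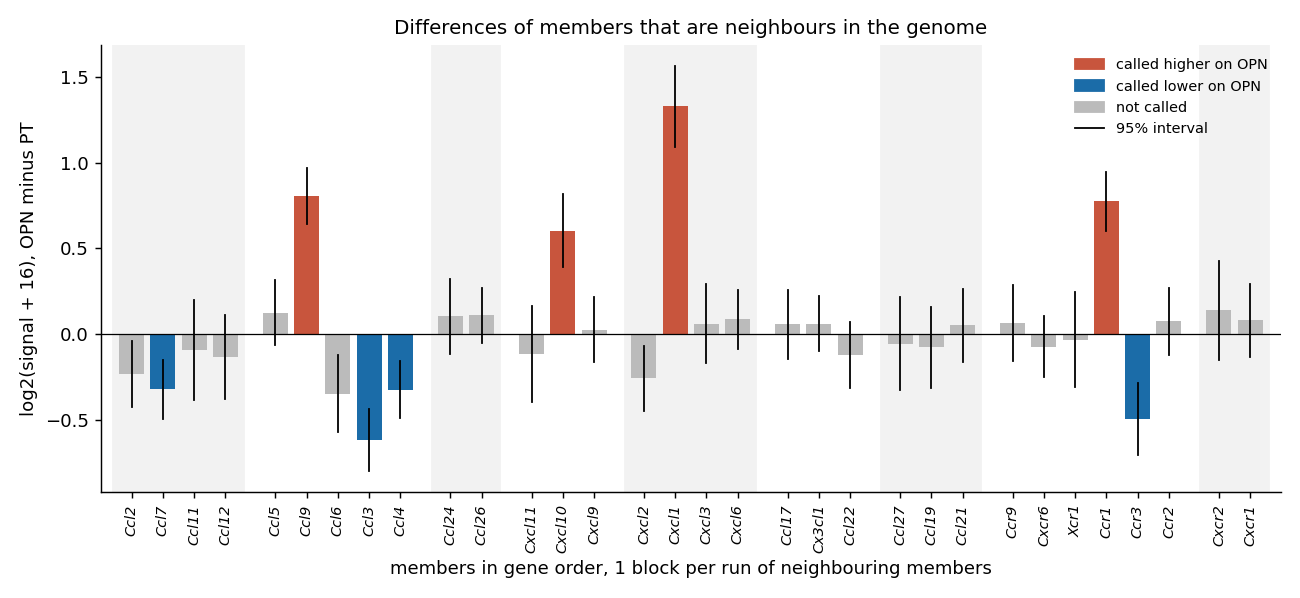
Difference in log2(signal + 16), OPN minus PT (vertical axis), of the 32 genes that neighbour another of the 50, in gene order with 1 block per run and 95% intervals from limma as lines. The bars of Ccl9 (0.81) and Ccl3 (-0.62) and of Ccr1 (0.77) and Ccr3 (-0.50) point in opposite directions within the same block.

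Related genes outside the naming rule were read from lists. Of 13 such genes related to chemokines, 4 rose (30.8%) and 1 fell, beside 7.62% and 1.12% of all named genes. The platelet chemokines Pf4 (0.80) and Ppbp (0.74), the CKLF-like membrane gene Cmtm3 (0.41) and the left-out Cxcl12 (1.82, from 389.5 ± 22.5 to 1413 ± 37.0 units, SD, n = 3) rose. Ccrl2, which binds chemerin and presents it without signalling, fell (-0.32, adjusted p = 0.0257).

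Downstream of the receptors, 5 of 27 genes were higher (18.5%, against 7.62% of named genes) and 0 were lower (against 1.12%). The median was 0.13. The inhibitory G protein subunits Gnai1 (1.89, from a dim 76.7 ± 6.42 to 328.5 ± 30.5 units, SD, n = 3) and Gnai3 (0.31), the Rac activator Elmo1 (0.59), the G protein regulator Rgs18 (0.52) and the small GTPase Rap1b (0.44) rose. Arrestins, receptor kinases, Dock2, Rac1 and Rac2 were among the 22 without a call.

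Of 18 genes of NF-kB feedback and inflammatory cytokines, 5 rose (27.8%) and 2 fell, beside 7.62% and 1.12% of named genes. The mRNA decay factor Zfp36 (1.19), the prostaglandin synthase Ptgs2 (0.84), the NF-kB regulators Nfkbiz (0.75) and Nfkbia (0.55) and the superoxide dismutase Sod2 (0.64) rose, while the interleukin genes Il1a (-0.59) and Il1b (-0.42) fell. Of 18 interferon-induced genes only the transcription factor Irf1 (1.17, adjusted p = 0.000491) was called, beside 8.73% of all named genes, and the list's median was 0.00.

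Enzymes that trim chemokines and proteoglycans that hold them gave 11 of 18 genes higher (61.1%, against 7.62% of named genes). None was lower, and the median was 0.52. The metalloproteases Mmp13 (3.81), Mmp9 (2.90) and Mmp2 (2.57) and the syndecan Sdc2 (2.71), a heparan sulfate carrier, had the smallest p. The genes of heparan sulfate synthesis Ext2 (0.76) and Ext1 (0.47) rose as well.

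Markers of several cell types differed between the coatings on the same arrays. These lists share genes with those above, so their counts are not separate. Pf4 and Ppbp recur among the platelet markers, Mmp9 among the osteoclast markers and other proteases among the neutrophil markers. Over all named genes 7.62% rose and 1.12% fell. Of 13 macrophage genes 8 fell and 0 rose, and their summed signal was 13850 to 14420 units on PT and 9784 to 10500 on OPN. The uncalled macrophage genes Cd68 (0.18), Vsig4 (0.14) and Csf1r (0.12) lay above 0, while the other 10 lay below it. Of 9 osteoclast genes 7 rose and 0 fell (10990 to 13220 units on PT and 28550 to 32050 on OPN). Most of that PT sum came from Car2, which was not called (log2 -0.21). It gave 8897 ± 1080 units on PT and 7673 ± 401.7 on OPN (SD, n = 3). All 11 osteoblast and all 11 stromal genes measured rose, with medians of 2.46 and 1.95, and so did 10 of 12 endothelial genes (median 0.61) and 6 of 7 platelet genes (median 0.74). Of 12 neutrophil genes 0 were called by limma and 6 had an unadjusted p below 0.05, with a median of 0.29 and summed signals of 11500 to 18350 units on PT and 16850 to 19060 on OPN. How many of all genes pass that unadjusted cut was not counted. No gene of these lists is at 0 in the table. The part of these shifts in the chemokine differences was not tested, and fewer cells of a type cannot be told apart from less RNA per cell.

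**Figure D5:**
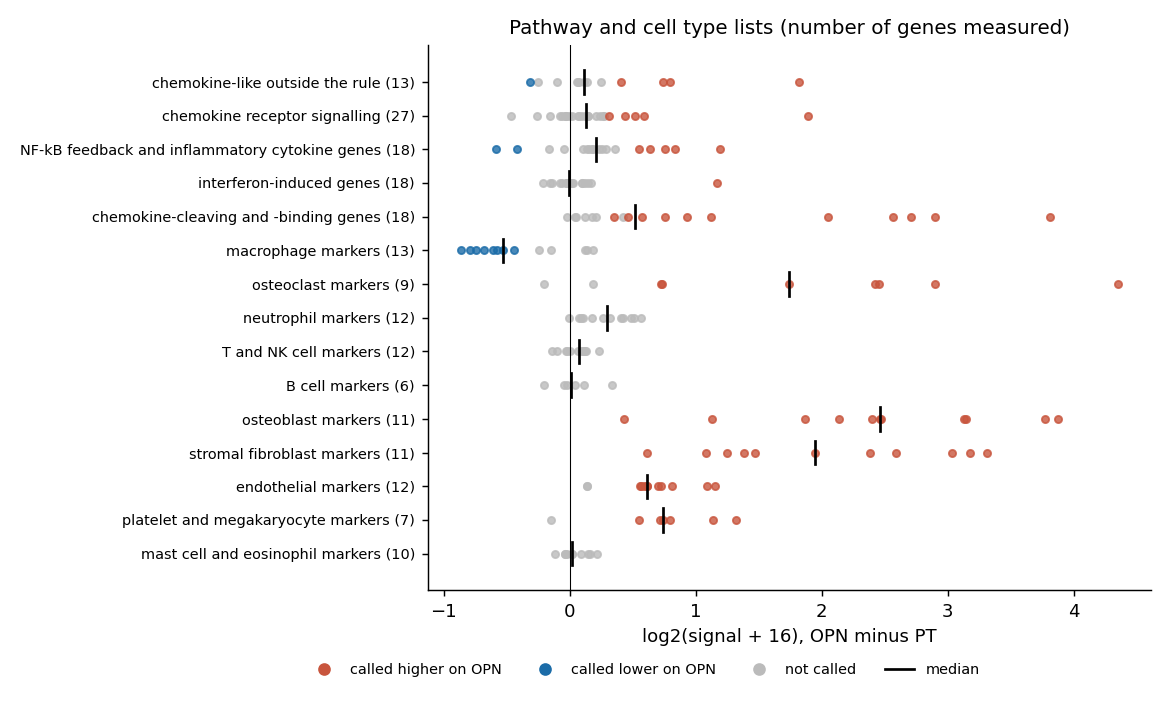
Difference in log2(signal + 16), OPN minus PT (horizontal axis), of each measured gene of 5 pathway and 10 cell type lists, coloured by its call, with the list's median as a vertical bar. The median of the macrophage markers lies below 0 (-0.53), with 3 of 13 genes above it. The medians of osteoblast (2.46), stromal (1.95) and osteoclast (1.74) markers lie above 0, with 1 of 9 osteoclast genes below it.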

How the data were processed

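Per the submitters' processing notes, the deposited intensities were made with Affymetrix Expression Console and PLIER. The labelling started from 300 ng of RNA per the labels. The genome build, versions, background correction and any scaling between arrays are unnamed, being not given in the sources used here. In all, 29215 rows hold linear signal, 1 column per array, and no row is below 0.

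Rows were named through the platform annotation (15310 with 1 symbol, 323 with several, 13582 with none), and a gene with several rows was given by the brightest. Protein sequences were not used here, and coordinates are given for RefSeq promoters of GRCr8 only. The model was fitted to log2(intensity + 16) of all rows by limma 3.58.1 (lmFit, eBayes) under R 4.3.3, with 1 term for coating and Benjamini-Hochberg adjustment, and was tested on simulated data. The members, gene lists and tests were chosen with earlier results of these data known. Given array by array are the called members and the 8 uncalled ones with the smallest p. Of the other lists, up to 4 genes with the smallest p are named, and all called genes of a direction with 5 or fewer. Elmo1, Rap1b and the other genes of such short groups came in by that rule, while Ext1, Ext2 and the members given for their place beside a called gene were named after their values were seen. Groups and replicate numbers come from the sample titles. Alternatives covered offsets of 1 and 64, equal medians, quantile normalisation, a minimum mean of 100 units, 1 row per gene, a trended prior, a replicate block and each array left out.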

Additional observations from a re-analysis of the deposited data

How the results depend on the processing

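Cxcl1, Ccl9, Ccr1 and Ccl3 kept their calls in all 14 alternatives. Other offsets, scalings, the filter on dim rows, 1 row per named gene and the trended prior gave 7 to 10 called members in place of 8. With 1 row per named gene, 2 receptors were called higher in place of 1, while 13.2% of rows were called in place of 5.82%. Leaving out single arrays gave 5 to 7 called members, 1 to 3 of them lower in place of 4. It gave 1 to 2 lower ligands in place of 3, 1 to 2 called receptors in place of 2, of which 1 to 2 were higher and 0 to 1 lower, and 1023 to 1486 called rows in place of 1700. Of those rows 95 to 181 were lower in place of 225. Rows called lower numbered 551 with equal array medians and 745 with quantile normalisation in place of 225, so that 68.4% and 64.6% of calls were higher in place of 86.8%.

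The replicate number as a block left 666 rows called, and 5 members, 2 of them lower. Only numbers 2 and 4 occur in both groups, so PT replicate 1 and OPN replicate 3 do not enter the difference of that fit. With the block 3 ligands were called, 1 of them lower, and the calls of Cxcl10 (adjusted p = 0.0977), Ccl4 (0.236) and Ccl7 (0.218) were lost. The labels do not say that a number marks a shared preparation, and deviations of same-numbered arrays from their group means correlated at -0.08 for number 2 and 0.07 for number 4, so the numbers were not taken as pairs.

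Small uncalled values changed sign. Cxcl9 turned to -0.033 with equal medians, -0.011 with quantile normalisation and -0.0080 with the replicate block, and ranged from -0.013 to 0.099 over the arrays left out. Cxcl3 turned to -0.00055 with equal medians and ranged from -0.026 to 0.14, Cxcl11 from -0.25 to 0.0056 and Ccl11 from -0.21 to 0.0037. Of the 25 members given by range, 17 changed sign under at least 1 alternative and 0 were called under any. Signal over background is unknown, which limits what dim genes such as Ccr9 and Cxcl9 can show.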
